A study of Mus musculus with 6 samples.

Results

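The p53 pathway and DNA damage genes described here are 32 genes of the mouse: Trp53, its 2 main inhibitors, 2 checkpoint kinases, and 27 genes that p53 is known to switch on or that act beside it in cell cycle arrest, cell death, DNA repair and redox control. They were taken by gene name from a table of 35148 genes, and each name matched exactly 1 row. RNA was sequenced from the paraventricular nucleus of the hypothalamus (PVH) of Ruvbl2fl/fl mice, in which both copies of Ruvbl2 carry loxP sites. All animals had received an adeno-associated virus of serotype 2 in the PVH and were sampled 8 weeks later: in the AAV2-GFP group (3 libraries) it carried GFP alone, and in the AAV2-Cre-GFP group (3 libraries) it carried the Cre recombinase with GFP, so the control differs by Cre and not by genotype or surgery. No source used here gives the animals' age or sex, the promoter that drives Cre, the share of PVH cells that took up virus or whether animals were pooled, and p-values measure the spread between libraries that may or may not be separate animals. The study was designed around RUVBL2 and synaptic plasticity, and the comparison here asks how the genes of the p53 programme stand in the same libraries. RUVBL2 is an ATPase of chromatin remodellers and of a chaperone complex that helps to assemble the ATM, ATR and DNA-PK kinases.

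The tumour suppressor p53 is a transcription factor held at a low level by MDM2, a ubiquitin ligase that p53 itself induces, and by the related protein MDM4. DNA breaks activate ATM and ATR, which signal through the checkpoint kinases CHK2 and CHK1, release p53 from MDM2 and let it induce genes of arrest, repair and apoptosis. The control acts largely on the p53 protein, so the Trp53 messenger need not follow it. In neurons, which do not divide, the same targets are known as markers of stress and damage.

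Total counts ran from 41890769 to 54702785 per library, and each member had at least 10 counts in every library and passed the filter on low counts. Ruvbl2 itself, the gene that checks the labels, stood at 9.90, 7.36 and 8.72 FPKM (fragments per kilobase of transcript, scaled to the library's mapped fragments) in the AAV2-GFP libraries 1 to 3 and at 9.53, 9.10 and 9.51 FPKM in the AAV2-Cre-GFP libraries 1 to 3. It was not lower with Cre (log2 difference 0.077 ± 0.11, SE; edgeR adjusted p = 0.773; two-sided exact permutation test of FPKM p = 0.5, where 0.1 is the smallest p possible), so every direction below compares libraries by their labels, written GFP-labelled and Cre-labelled. The count covers the whole gene and does not separate the floxed exons. All 8 PVH marker genes (such as Oxt, Avp, Crh and Sim1) were detected in every library, with a sum between 332 and 793 CPM (counts scaled to the library's total) in the GFP-labelled and between 263 and 571 CPM in the Cre-labelled libraries. Transcripts of other tissues marked 3 libraries: the sum of 18 testis genes was 1036 CPM in GFP-labelled library 1 and between 147 and 160 CPM elsewhere, that of 12 kidney genes 549 and 603 CPM in Cre-labelled libraries 2 and 3 and at most 58.9 CPM elsewhere, and that of 12 skeletal muscle genes 260 CPM in Cre-labelled library 3, 27.6 CPM in Cre-labelled library 2 and at most 12.7 CPM elsewhere. Results are therefore given with all 6 libraries, without GFP-labelled library 1, and without these 3 libraries, which leaves GFP-labelled libraries 2 and 3 against Cre-labelled library 1.

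With all 6 libraries, 0 of the 32 members had an adjusted p under 0.05 by the quasi-likelihood test of edgeR, while 2 of all 20865 genes tested (0.00959%) did. At an unadjusted p under 0.05, 7 members were higher in the Cre-labelled libraries (Cdkn1a, Ccng1, Btg2, Gadd45a, Chek2, Sesn1 and Ercc5), beside 8.11% of all genes tested, and 1 was lower (Zmat3), beside 9.11% of all genes. The Cre-labelled libraries lay wholly above the GFP-labelled ones for 10 members, beside 11.1% of all genes, and wholly below for 1, beside 11.7%. By sign alone 24 members were higher and 8 lower, with a median log2 difference of 0.13, while 49.0% of all genes tested were higher and their median was -0.0058. DESeq2 (Wald test on the same counts) called 5 members as higher, namely Cdkn1a, Ccng1, Btg2, Chek2 and Sesn1, beside 3.12% of the 16455 genes with an adjusted p, and Zmat3 as lower, beside 4.91%; its adjusted p were 4.21e-05, 0.000133, 0.00255, 0.016, 0.0036 and 0.00808 in that order.

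**Figure D1:**
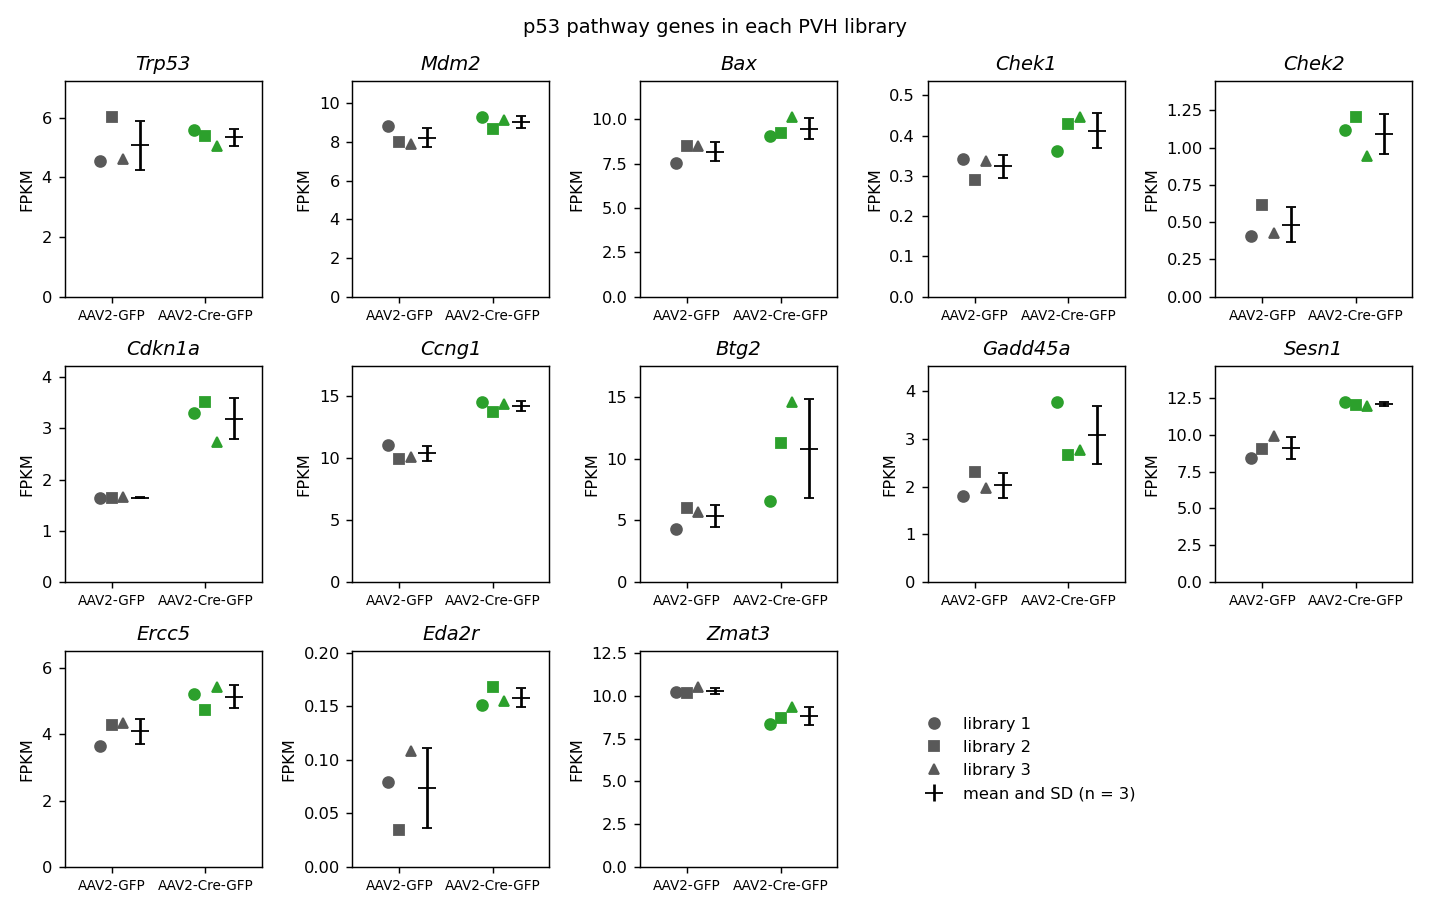
FPKM of 13 members in each library, with the mean and SD of each group of 3; grey, AAV2-GFP; green, AAV2-Cre-GFP; every axis starts at 0. Cdkn1a sat at 1.64 to 1.66 FPKM in the GFP-labelled and at 2.74 to 3.52 FPKM in the Cre-labelled libraries, Ccng1 and Sesn1 were also separate, Zmat3 was lower, and Trp53 and Mdm2 overlapped.

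Trp53 and its inhibitors overlapped between the groups. Trp53 stood at 4.57, 6.03 and 4.63 FPKM in GFP-labelled libraries 1 to 3, and at 5.59, 5.39 and 5.05 FPKM in the Cre-labelled ones. All Cre-labelled values lay inside the GFP-labelled range, and the log2 difference was 0.035 ± 0.12 (SE; 95% interval -0.24 to 0.31; edgeR adjusted p = 0.916), which turned to -0.037 without GFP-labelled library 1 and to -0.023 without GFP-labelled library 3. Mdm2, both inhibitor and target of p53, stood at 8.81, 7.98 and 7.88 FPKM against 9.29, 8.69 and 9.14 FPKM. GFP-labelled library 1 was above Cre-labelled library 2, and the log2 difference was 0.099 ± 0.068 (SE; 95% interval -0.057 to 0.26; edgeR adjusted p = 0.50); without GFP-labelled library 1 it was 0.15 ± 0.065 (edgeR adjusted p = 0.322). Mdm4, the MDM2 relative that blocks the activation domain of p53, stood at 8.80 ± 0.317 against 10.03 ± 1.199 FPKM (SD, n = 3), with a log2 difference of 0.15 ± 0.081 (SE; edgeR adjusted p = 0.397). Cre-labelled library 1 held the highest Mdm4 level (11.4 FPKM), and in the fit of that library against GFP-labelled libraries 2 and 3 Mdm4 was called as higher by 0.28 in log2 (edgeR adjusted p = 0.039). Some Trp53 and Mdm4 reads can come from copies, since 8.79% of the 31-base words of Trp53 also occur in the pseudogene Trp53-ps and 13.1% of those of Mdm4 in Mdm4-ps.

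Of the checkpoint kinases, Chek2 differed more than Chek1. Chek2, the kinase activated by ATM, stood at 0.408, 0.617 and 0.426 FPKM in the GFP-labelled and at 1.12, 1.21 and 0.944 FPKM in the Cre-labelled libraries. All 3 Cre-labelled libraries were above all GFP-labelled ones, from 63 to 191 counts per library, with a log2 difference of 1.13 ± 0.26 (SE; 95% interval 0.52 to 1.73; edgeR adjusted p = 0.111), a 2.18-fold ratio. Chek1, the kinase activated by ATR, stood at 0.343, 0.290 and 0.337 against 0.363, 0.428 and 0.447 FPKM. Its groups did not overlap either, but the nearest libraries were close and the log2 difference of 0.31 ± 0.24 (SE; edgeR adjusted p = 0.563) had an interval from -0.26 to 0.88; the difference between the 2 kinases was not tested. Chek2 lies on chromosome 5 at 110839979 to 110874133, plus strand (coordinates here and below are those of the deposited table, GRCm38).

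Genes of cell cycle arrest and growth control held the 2 members with the smallest p, Cdkn1a and Ccng1. Cdkn1a encodes p21, the inhibitor of cyclin-dependent kinases that carries out p53-dependent arrest (chromosome 17, 29090976 to 29100727, plus strand). It stood at 1.64, 1.64 and 1.66 FPKM in GFP-labelled libraries 1 to 3, and at 3.31, 3.52 and 2.74 FPKM in the Cre-labelled ones. The lowest Cre-labelled library was well above the nearly equal GFP-labelled ones, from 283 to 657 counts per library, and the log2 difference was 0.91 ± 0.14 (SE; 95% interval 0.58 to 1.25; edgeR adjusted p = 0.0705), a 1.88-fold ratio. Ccng1, which encodes cyclin G1, a p53 target that recruits a phosphatase to MDM2 (chromosome 11, 40748552 to 40755311, minus strand), stood at 11.1, 9.92 and 10.1 against 14.5, 13.7 and 14.4 FPKM. The 3 Cre-labelled libraries were alike and above every GFP-labelled one, with a log2 difference of 0.42 ± 0.067 (SE; 95% interval 0.26 to 0.57; edgeR adjusted p = 0.0705).

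The promoters of these genes can be set beside their levels. Windows of 300 bases, from 250 before to 50 after each annotated start (RefSeq, GRCm38.p6), were read for 24 of the 32 members. A search for the p53 half-site consensus, a motif of 10 bases that reads the same on both strands, found it in at least 1 window of 10 of these 24 genes, beside 9.55% of all 27025 genes in the RefSeq table. These were Trp53, Mdm2, Cdkn1a, Ccng1, Gadd45a, Bax, Aen, Ei24, Polk and Sesn1, so matches stood in front of members with and without an unadjusted p under 0.05. A match is a description of letters and not evidence of binding, and response elements outside the window were not searched. The 4 windows below are shown because they belong to members with an unadjusted p under 0.05 and hold the motif; each is 5′ to 3′ on the gene's strand, with the half-site in capitals.
Cdkn1a (chr17:29090729-29091028, plus strand): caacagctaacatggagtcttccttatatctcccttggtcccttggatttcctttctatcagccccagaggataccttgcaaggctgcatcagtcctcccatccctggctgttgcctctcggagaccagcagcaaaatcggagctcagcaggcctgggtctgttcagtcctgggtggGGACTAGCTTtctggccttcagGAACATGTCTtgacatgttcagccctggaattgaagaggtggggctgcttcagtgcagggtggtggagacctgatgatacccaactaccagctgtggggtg
Ccng1 (chr11:40755237-40755536, minus strand): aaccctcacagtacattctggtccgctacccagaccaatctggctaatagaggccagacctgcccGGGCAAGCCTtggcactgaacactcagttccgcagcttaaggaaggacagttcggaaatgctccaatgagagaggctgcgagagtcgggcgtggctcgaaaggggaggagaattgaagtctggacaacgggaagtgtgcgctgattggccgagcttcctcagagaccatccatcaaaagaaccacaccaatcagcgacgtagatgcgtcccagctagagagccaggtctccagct
Gadd45a (chr6:67037358-67037657, minus strand): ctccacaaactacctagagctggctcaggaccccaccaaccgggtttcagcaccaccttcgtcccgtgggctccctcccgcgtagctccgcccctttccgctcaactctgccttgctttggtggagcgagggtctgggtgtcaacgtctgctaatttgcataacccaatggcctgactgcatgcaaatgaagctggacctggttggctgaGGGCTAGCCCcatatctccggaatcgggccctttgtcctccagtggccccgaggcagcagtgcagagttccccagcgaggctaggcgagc
Sesn1 (chr10:41887189-41887488, plus strand): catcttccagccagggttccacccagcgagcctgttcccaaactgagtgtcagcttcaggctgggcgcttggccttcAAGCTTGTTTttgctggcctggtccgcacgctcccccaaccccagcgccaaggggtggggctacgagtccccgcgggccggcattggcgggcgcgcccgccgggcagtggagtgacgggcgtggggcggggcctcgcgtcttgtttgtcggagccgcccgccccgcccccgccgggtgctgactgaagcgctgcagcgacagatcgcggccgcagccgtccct
Cdkn1a was the only member with 2 half-sites in 1 window, starting 73 and 51 bases before the upstream of its 2 annotated starts. The window of its downstream start held no half-site. The half-sites of Ccng1, Gadd45a and Sesn1 start 185, 40 and 173 bases before the annotated starts of their windows. The Sesn1 window belongs to the downstream of its 2 annotated starts. No half-site letters stand in the windows of Chek2, Btg2 and Ercc5.

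Gadd45a and Btg2 were higher with Cre but spread more between libraries than Cdkn1a and Ccng1. Gadd45a, a small stress protein that binds PCNA and p21 (chromosome 6, 67035096 to 67037406, minus strand), stood at 1.80, 2.31 and 1.97 FPKM against 3.77, 2.67 and 2.77 FPKM. Cre-labelled library 1 was the highest and the groups did not overlap, with a log2 difference of 0.55 ± 0.21 (SE; 95% interval 0.075 to 1.03; edgeR adjusted p = 0.234). An overlapping gene on the other strand, E230016M11Rik, shares 17.0% of the 31-base words of Gadd45a; it ran from 6.19 to 8.18 CPM with GFP and from 5.50 to 6.85 CPM with Cre, and was not higher where Gadd45a was. Btg2, an antiproliferative p53 target that is also induced by neuronal activity (chromosome 1, 134075170 to 134079120, minus strand), stood at 4.29, 5.98 and 5.66 FPKM against 6.58, 11.2 and 14.6 FPKM. Cre-labelled library 1 lay just above the GFP-labelled range and libraries 2 and 3, those with kidney transcripts, lay far above it. The log2 difference of Btg2 was 0.99 ± 0.28 (SE; edgeR adjusted p = 0.145). It was called at 1.27 without Cre-labelled library 1 (edgeR adjusted p = 0.0264; 1 of 32 members called, beside 1.12% of all genes as higher) and was 0.12 when only that library was set against GFP-labelled libraries 2 and 3. The polo-like kinases Plk2 and Plk3, stress-induced kinases of the same family, did not separate, with log2 differences of 0.042 ± 0.17 and 0.014 ± 0.16 (SE) and 95% intervals of -0.35 to 0.43 and -0.35 to 0.38. Their direction turned with the libraries used. Plk2 was at -0.067 without GFP-labelled library 1, 0.20 without Cre-labelled library 1 and -0.42 without the 3 libraries with other-tissue transcripts. Plk3 was at -0.11, 0.11 and -0.29 in the same order.

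**Figure D2:**
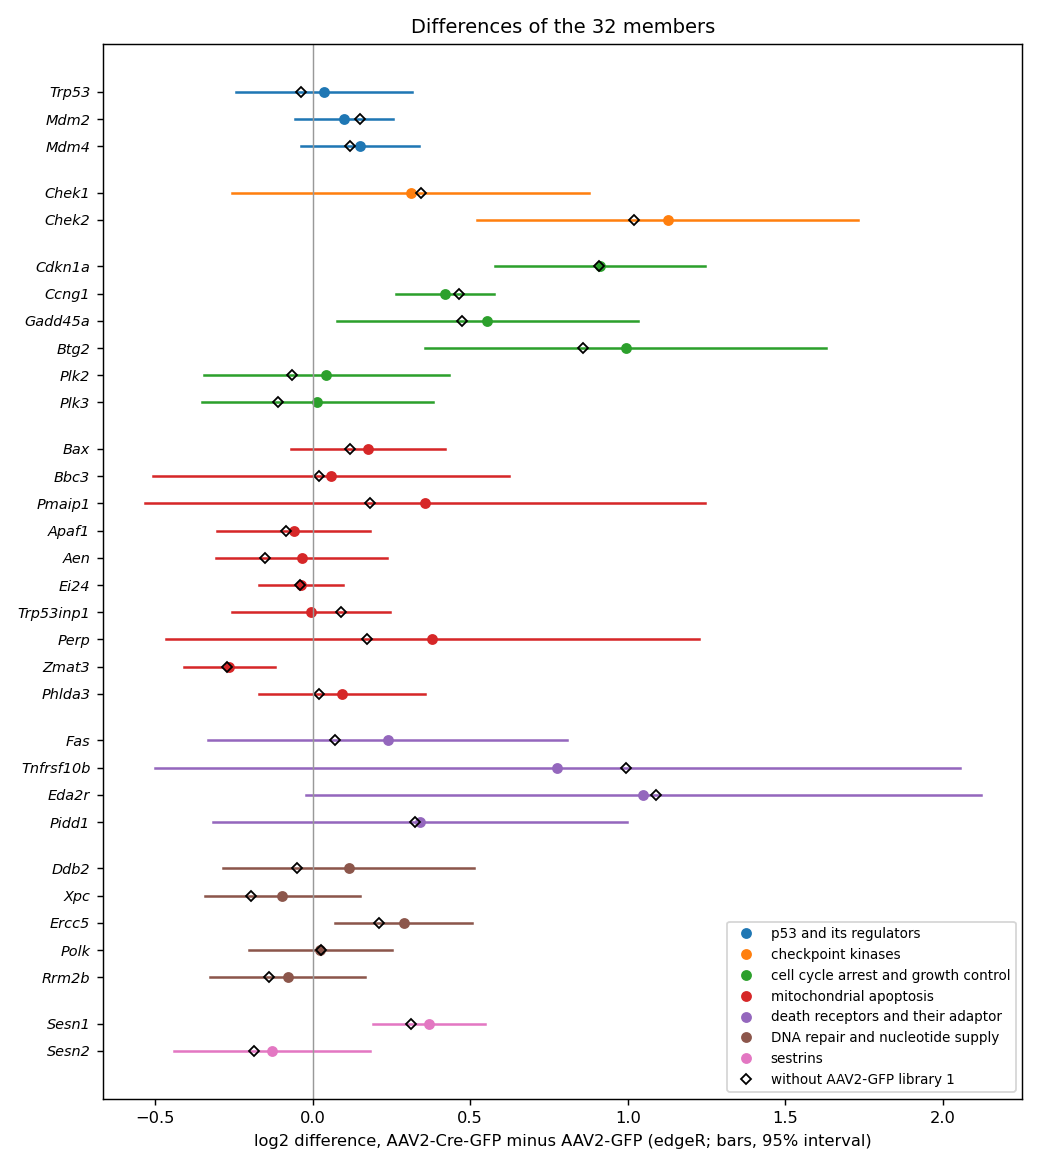
Log2 difference (AAV2-Cre-GFP minus AAV2-GFP) of each of the 32 members in edgeR, with its 95% interval, coloured by role; open diamonds, the difference without GFP-labelled library 1. The intervals of 7 members lie above 0 and that of Zmat3 lies below it, and the open diamonds keep the direction for those 8 genes.

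Genes of apoptosis through the mitochondria, with Zmat3 and Phlda3 counted among them, went both ways: 5 of the 10 were higher and 5 lower by sign, with a median log2 difference of 0.027. With all 6 libraries none passed the adjusted threshold in edgeR, and DESeq2 called Zmat3 as lower, beside 4.91% of the genes with an adjusted p. Bax, which forms pores in the mitochondrial membrane, stood at 7.56, 8.52 and 8.47 FPKM against 9.08, 9.23 and 10.1 FPKM. The groups did not overlap, but the difference was small, at 0.18 ± 0.11 in log2 (SE; 95% interval -0.068 to 0.42; edgeR adjusted p = 0.442), and 0.041 without the 3 libraries with other-tissue transcripts. The BH3-only genes Bbc3 (PUMA) and Pmaip1 (NOXA), direct inducers of apoptosis, stood at 1.21 ± 0.0713 against 1.30 ± 0.312 FPKM and at 0.464 ± 0.131 against 0.607 ± 0.232 FPKM (SD, n = 3), with overlapping libraries. Perp, an effector at cell junctions, ranged from 0.965 to 2.29 FPKM over the 6 libraries and overlapped too, with a log2 difference of 0.38 ± 0.37 (SE). In the fit without the 3 libraries with other-tissue transcripts Perp was at -0.61 and Pmaip1 at -0.62, against 0.38 and 0.36 with all 6, and without GFP-labelled library 1 they were at 0.17 and 0.18. Apaf1, the core of the apoptosome, Aen, a nuclease, Ei24, an endoplasmic reticulum protein, and Trp53inp1, a p53 cofactor, had log2 differences between -0.061 and -0.0049, and Phlda3, an inhibitor of AKT, one of 0.092. The interval of Ei24 was the narrowest of these, from -0.17 to 0.096.

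Zmat3 was the one member that was lower with non-overlapping groups. It encodes an RNA-binding zinc finger protein that p53 induces and that takes part in splicing (chromosome 3, 32334792 to 32366014, minus strand). It stood at 10.2, 10.2 and 10.5 FPKM in the GFP-labelled and at 8.34, 8.68 and 9.37 FPKM in the Cre-labelled libraries. The difference was -0.26 ± 0.063 in log2 (SE; 95% interval -0.41 to -0.12; edgeR adjusted p = 0.113), from at least 4622 counts in each library, so its direction was opposite to that of Cdkn1a and Ccng1.

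Death receptor genes were expressed at low levels, and all 4 were higher by sign with a median log2 difference of 0.56. Eda2r, the receptor of ectodysplasin A2, stood at 0.0793, 0.0341 and 0.108 FPKM against 0.152, 0.168 and 0.155 FPKM. The groups did not overlap, but the libraries held only 10 to 59 counts, and the log2 difference of 1.05 ± 0.46 (SE; edgeR adjusted p = 0.30) had an interval from -0.023 to 2.12. Tnfrsf10b, a TRAIL receptor, ranged from 0.0327 to 0.241 FPKM with 11 to 70 counts, and its groups overlapped. Fas, the FAS ligand receptor, and Pidd1, the adaptor that links p53 to caspase 2, stood at 1.27 ± 0.312 against 1.53 ± 0.0997 FPKM and at 0.451 ± 0.1495 against 0.588 ± 0.0419 FPKM (SD, n = 3), with overlapping libraries.

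Of 5 repair genes, Ercc5 stood apart. Ercc5 encodes XPG, the endonuclease that cuts 3′ of the lesion in nucleotide excision repair (chromosome 1, 44147744 to 44181260, plus strand). It stood at 3.66, 4.29 and 4.34 FPKM against 5.24, 4.75 and 5.43 FPKM. The groups did not overlap, and the log2 difference was 0.29 ± 0.094 (SE; 95% interval 0.071 to 0.50; edgeR adjusted p = 0.187). Ddb2 and Xpc, which recognise damaged DNA, had log2 differences of 0.11 ± 0.17 and -0.097 ± 0.11 (SE). Polk, a translesion polymerase, differed by 0.024 ± 0.098 and Rrm2b, the p53-induced ribonucleotide reductase subunit, by -0.080 ± 0.11 (SE). GFP-labelled library 1 held the lowest level of both Ddb2 (3.15 FPKM, against 4.18 to 5.07 in the other 5) and Xpc (3.67 FPKM, against 3.87 to 4.67). Acp2, on the other strand, shares 20.2% of the 31-base words of Ddb2, so the Ddb2 value is uncertain. The same holds, to a smaller degree, for Rrm2b (14.3% of its words shared with other genes), Tnfrsf10b (11.4%), Bax (11.1%) and Cdkn1a (9.78%).

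The 2 sestrins, antioxidant proteins that restrain mTORC1, went different ways by sign. Sesn1, a p53-responsive gene (chromosome 10, 41809935 to 41908424, plus strand), stood at 8.41, 9.04 and 9.93 FPKM against 12.25, 12.06 and 11.998 FPKM. The Cre-labelled libraries were nearly equal and all above the GFP-labelled ones, with a log2 difference of 0.37 ± 0.077 (SE; 95% interval 0.19 to 0.55; edgeR adjusted p = 0.0946). Sesn2, also induced by ATF4 under amino acid and endoplasmic reticulum stress, stood at 4.52, 5.26 and 4.85 FPKM against 3.88, 4.53 and 5.29 FPKM. Its groups overlapped, with a log2 difference of -0.13 ± 0.13 (SE; edgeR adjusted p = 0.668); the difference between the sestrins was not tested.

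By level, per gene length and over all libraries, Phlda3 (13.9 to 19.5 FPKM), Ei24 (12.8 to 14.3) and Ccng1 (9.92 to 14.5) were the most abundant members and their ranges overlapped. Eda2r (0.0341 to 0.168), Tnfrsf10b (0.0327 to 0.241) and Chek1 (0.290 to 0.447) were the least abundant. Cdkn1a, at 1.64 to 3.52 FPKM, was below Mdm2 (7.88 to 9.29 FPKM) in every library.

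**Figure D3:**
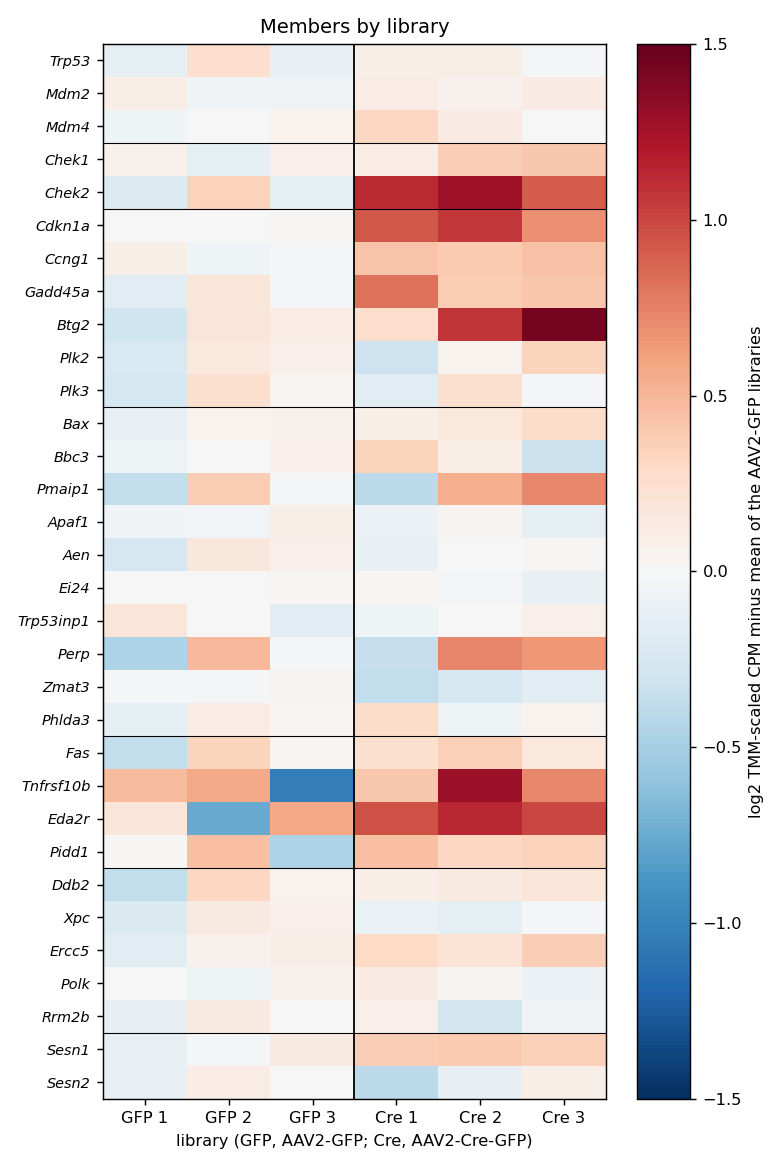
Each member (rows, grouped by role) in each library (columns), as log2 TMM-scaled CPM minus the mean of the AAV2-GFP libraries; red is higher and blue lower. Chek2, Cdkn1a, Ccng1, Sesn1 and Eda2r are red in all 3 Cre-labelled libraries, Btg2, Pmaip1 and Perp are strongest in libraries 2 and 3, and GFP-labelled library 1 is blue or pale for most members.

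Library by library, the median of the 32 members relative to the GFP-labelled mean was -0.12, 0.11 and 0.030 in log2 in the GFP-labelled libraries 1 to 3 and 0.11, 0.15 and 0.17 in the Cre-labelled ones. GFP-labelled library 2 was thus at the level of Cre-labelled library 1, and the set as a whole did not separate the groups. GFP-labelled library 1, which held the testis transcripts, was the lowest. Without it, 21 members were higher and 11 lower, with a median of 0.10. Of these, 6 were higher at an unadjusted p under 0.05 (beside 7.71% of all genes tested) and Zmat3 was lower (beside 8.53%), and none passed an adjusted p of 0.05 in edgeR, where 0.00924% of all genes did. The signs of Trp53, Plk2, Plk3 and Ddb2 turned negative and that of Trp53inp1 positive. Gadd45a was the one that left, at 0.47 ± 0.22 in log2 (SE; edgeR adjusted p = 0.339). Cdkn1a was then at 0.91 ± 0.16, Ccng1 at 0.47 ± 0.066, Chek2 at 1.02 ± 0.27, Sesn1 at 0.31 ± 0.073 and Zmat3 at -0.27 ± 0.072 (SE), with edgeR adjusted p of 0.0959, 0.0924, 0.159, 0.137 and 0.159. Btg2 was at 0.86 ± 0.30 and Ercc5 at 0.21 ± 0.086 (SE), with edgeR adjusted p of 0.233 and 0.291. Cdkn1a, Ccng1, Sesn1, Chek2, Zmat3, Btg2 and Ercc5 therefore kept their direction and an unadjusted p under 0.05 without that library. With GFP-labelled libraries 2 and 3 against Cre-labelled library 1, edgeR called Cdkn1a (0.95), Ccng1 (0.48) and Mdm4 (0.28) as higher, 3 of 32 members beside 1.24% of all genes, and Zmat3 (-0.36) as lower, beside 3.57%; the lone library is assumed there to vary like the others.

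**Figure D4:**
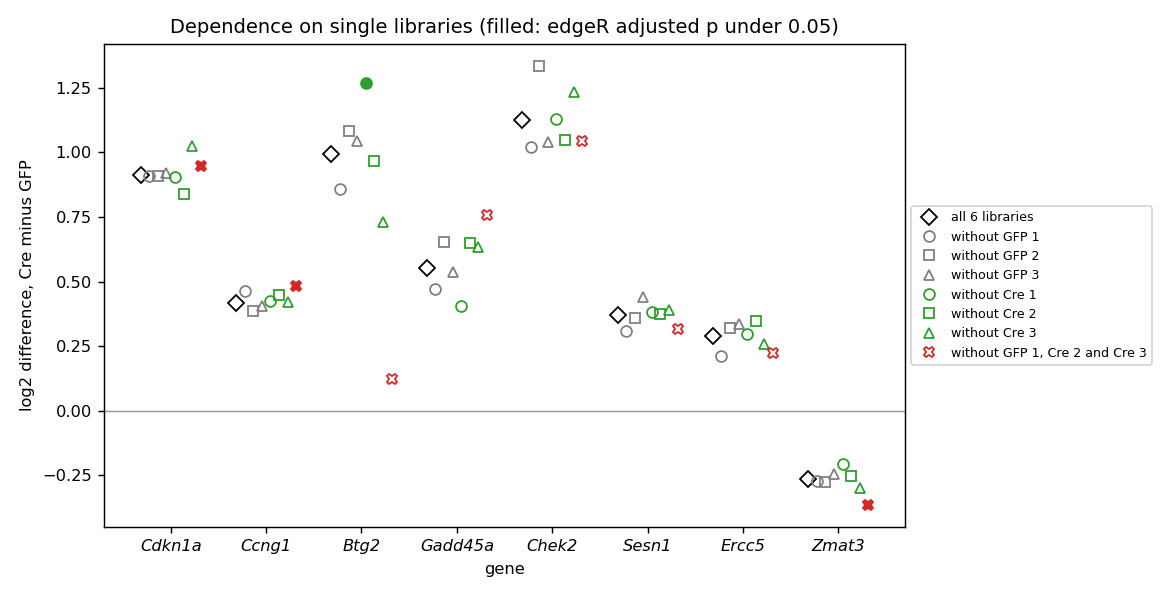
Log2 difference (AAV2-Cre-GFP minus AAV2-GFP, edgeR) of the 8 members with an unadjusted p under 0.05, with all 6 libraries, with each library left out and with the 3 libraries that hold other-tissue transcripts left out; filled symbols have an adjusted p under 0.05. Cdkn1a stays between 0.84 and 1.02 and Ccng1 between 0.39 and 0.48, while Btg2 runs from 0.12 to 1.27.

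The rest of the pathway was read from 6 lists of 128 further genes, of which 125 were tested. With all 6 libraries 66 were higher and 59 lower by sign, with a median log2 difference of 0.036. At an unadjusted p under 0.05, 12 were higher and 3 lower (beside 8.11% and 9.11% of all genes tested). None passed the adjusted threshold in edgeR with all 6 libraries, and none did without GFP-labelled library 1. Of the 121 that had an adjusted p in DESeq2, it called Rad23b alone, as lower, beside 4.91% of all genes. Cdkn2a, Gdf15 and Bik were too low to be tested. Of 19 damage sensors and signalling kinases, among them Atm, Atr and Prkdc, none had an unadjusted p under 0.05 and 12 were lower by sign, with a median of -0.069. Prkdc, the catalytic subunit of DNA-PK, stood at 1.84 ± 0.0680 against 1.67 ± 0.103 FPKM (SD, n = 3; adjusted p in edgeR of 0.323) and Hus1, a part of the checkpoint clamp, at 2.79 ± 0.0865 against 3.30 ± 0.256 FPKM (edgeR adjusted p = 0.30). Rnf8, a ubiquitin ligase at DNA breaks, stood at 1.29 ± 0.376 against 0.991 ± 0.0901 FPKM (edgeR adjusted p = 0.343).

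Among 22 further p53 targets 5 were higher at an unadjusted p under 0.05 (beside 8.11% of all genes) and none was lower (beside 9.11%). These included the 2 mitotic spindle genes Psrc1 and Gtse1, at 0.0527 ± 0.00705 against 0.205 ± 0.0765 FPKM and 0.186 ± 0.0855 against 0.475 ± 0.106 FPKM (SD, n = 3; adjusted p in edgeR of 0.136 and 0.205). Of 16 tested p53 modifiers and relatives, 3 were higher at that level, beside 8.11% of all genes: Cop1, a ubiquitin ligase of p53, Trp73, the p53 relative p73, and Pml, a nuclear body protein, with log2 differences of 0.39 ± 0.12, 0.51 ± 0.17 and 0.31 ± 0.12 (SE). The BCL-2 family and caspases gave 2 of 22 higher at that level, a share near the 8.11% of all genes: Casp8, the initiator below death receptors, at 0.595 ± 0.0889 against 1.12 ± 0.126 FPKM, and Casp6 at 0.492 ± 0.0887 against 0.750 ± 0.0562 FPKM (SD, n = 3; adjusted p in edgeR of 0.139 and 0.238). Casp2, the caspase activated through PIDD1, stood at 1.76 ± 0.230 against 2.28 ± 0.338 FPKM, with overlapping libraries.

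Repair genes outside the 32 went both ways. In double-strand break repair Rad51c was higher, at 0.57 ± 0.22 in log2, and Brca2 lower, at -0.35 ± 0.13 (SE; edgeR adjusted p = 0.248 and 0.233), 1 of 23 in each direction with an unadjusted p under 0.05, beside 8.11% of all genes as higher and 9.11% as lower. Xrcc4, the ligase IV partner in end joining, differed by 0.49 ± 0.23 with overlapping libraries (edgeR adjusted p = 0.339). In excision repair Apex1, the abasic site endonuclease, and Rad23b, the partner of XPC, were lower at -0.35 ± 0.096 and -0.17 ± 0.048, and Ercc2, a helicase of TFIIH, was higher at 0.19 ± 0.082 (SE; edgeR adjusted p = 0.145, 0.145 and 0.287), 1 higher and 2 lower of 23, beside the same shares.

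Markers of several kinds of cell moved with the groups. Because tissue was sequenced in bulk, fewer cells of a type and less RNA per cell cannot be told apart. The 10 neuronal markers were all lower by sign, with sums from 5461 to 5551 CPM in the GFP-labelled and from 4688 to 5010 CPM in the Cre-labelled libraries. All 8 PVH markers were lower by sign too, but only 2 had groups that did not overlap. Their sums were 332, 740 and 793 CPM in GFP-labelled libraries 1 to 3, and 263, 289 and 571 CPM in the Cre-labelled ones. GFP-labelled library 1 was thus far below the others of its group and below Cre-labelled library 3. The 7 ependymal markers were all higher, with sums from 145 to 156 against 201 to 268 CPM. The 5 erythroid markers, also all higher, summed to 196 to 226 against 262 to 351 CPM. Of 12 lymphocyte markers 8 were tested and all 8 were higher, with sums from 9.43 to 11.95 against 13.6 to 21.6 CPM, of which Ptprc, also a microglial gene, was the largest part; Cd3d and Cd8b1 were at 0 in all GFP-labelled libraries, and Cd3e, Cd3d and Cd8b1 were each at 0 in 1 Cre-labelled library. Microglial sums ran from 337 to 379 and from 374 to 399 CPM, with 7 of 12 genes higher. For dividing cells the sums were 47.5 to 76.4 and 62.3 to 76.6 CPM, with 7 of 12 genes higher, among them Pcna, itself a p53 target. GFP-labelled library 1, which held the testis transcripts, gave the 76.4 CPM. GFP-labelled libraries 2 and 3 stood at 50.7 and 47.5 CPM, below every Cre-labelled library. Sums of the astrocyte (4386 to 4492 against 4439 to 4843 CPM), oligodendrocyte (2498 to 3051 against 2570 to 3079), oligodendrocyte precursor (229 to 261 against 247 to 268) and vascular lists (219 to 274 against 225 to 299) overlapped. CT010467, a ribosomal RNA model and not a marker of a cell type, ran from 2072 to 2219 CPM in the GFP-labelled and from 7301 to 17633 CPM in the Cre-labelled libraries. That difference goes with the groups in these poly(A) libraries, and its cause was not tested. The part of these differences in the levels of Cdkn1a, Ccng1, Chek2, Sesn1, Trp73 or the caspases was not tested. Cre-labelled library 1, where the kidney sum was 37.2 CPM, lay within the range of the other Cre-labelled libraries in FPKM of Cdkn1a, Chek2 and Ercc5. It lay above both of them for Ccng1, Gadd45a and Sesn1, and below both for Btg2, Chek1, Bax, Eda2r, Pmaip1 and Perp. Whether the other-tissue transcripts bear on these levels was not tested.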

How the data were processed

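Poly(A) RNA libraries with dUTP strand marking were sequenced as read pairs, per the labels' protocols. Cutadapt, HISAT2 and StringTie are named in the submitters' processing notes; no source used here gives their versions, or says whether strand or the molecular identifiers in the adapters entered the counting. The notes name mm9, but 91.4% of 35024 gene identifiers shared with GENCODE M21 have identical GRCm38 coordinates in the table. The authors deposited whole-number counts per gene, not normalized, and FPKM values (fragments per kilobase of transcript, scaled to library size).

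Counts of 6 libraries (3 per group) were fitted with edgeR 4.0.16 in R 4.3.3 (quasi-likelihood test, TMM, filterByExpr with a minimum count of 10, 20865 genes tested, two-sided, Benjamini-Hochberg adjustment over all of them, threshold 0.05). The fit was tested on simulated data. Standard errors come from the F statistic. Overlap of groups was judged on TMM-scaled CPM. Alternatives were DESeq2 1.42.0, RLE factors, no filter, a robust fit, a replicate block, libraries left out, and limma 3.58.1 on log2(FPKM + 0.5) or log2(FPKM + 0.1) for genes averaging at least 1 FPKM, and on log2(FPKM + 0.5) for all genes; fold changes on that scale are understated for low genes. Depth was 41890769 to 54702785 counts, so the spread between libraries sets the precision for all but the lowest members. Libraries differed from each other by more than sampling noise (chi-square per gene of at least 11.4 in every pair).

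Members and gene lists were chosen with earlier results of these data known, and list counts are descriptions. Named in full were Trp53, Mdm2, Cdkn1a and each member with an unadjusted p under 0.05 or non-overlapping groups (13 in all), and up to 3 genes with the smallest p of each pathway list. One gene that this rule names is not reported here. Sums of all 14 lists of other cells and tissues are given. Those of the PVH, microglial, dividing cell, astrocyte, oligodendrocyte, precursor and vascular lists overlapped between the groups.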

Additional observations from a re-analysis of the deposited data

How the results depend on the processing

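The number of genes with an adjusted p under 0.05 depended on the processing: 2 of all genes in edgeR with all 6 libraries, 9 with RLE factors, 1 without the filter on low counts, 22 with the robust fit, 1322 in DESeq2, and in limma 15 on log2(FPKM + 0.1) and 1 on log2(FPKM + 0.5) for all genes; the cause was not tested. It was 1059 without the 3 libraries that hold transcripts of other tissues and ran from 1 to 296 with single libraries left out, the highest without AAV2-Cre-GFP library 1. Of the 32 members DESeq2 called 6, the fit without those 3 libraries 4, and fits with 1 library left out 0 to 1. DESeq2 called 5 of its 6 as higher, beside 3.12% of all genes with an adjusted p, and Zmat3 as lower, beside 4.91%. In the fit without those 3 libraries Cdkn1a (0.95), Ccng1 (0.48) and Mdm4 (0.28) were higher and Zmat3 (-0.36) was lower. The shares of all genes for that fit stand in the Results. Without AAV2-Cre-GFP library 1 the member called was Btg2, as higher, beside 1.12% of all genes. The count of members with an unadjusted p under 0.05 stayed between 7 and 10, but the genes counted changed between settings. At that level 8.11% of all genes were higher and 9.11% lower in edgeR with all 6 libraries. The limma fits on genes averaging at least 1 FPKM tested 26 members. The median log2 difference of the members tested lay between 0.095 and 0.19. Without the 3 libraries 22 members were higher and 10 lower by sign, with Btg2 at 0.12, Plk2 at -0.42 and Sesn2 at -0.44. With single libraries left out, Ruvbl2 ran from -0.029 (without AAV2-GFP library 2) to 0.18, and it was 0.19 without the 3 libraries; Trp53 ran from -0.037 to 0.17, also below 0 at -0.023 without AAV2-GFP library 3.

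No source used here says whether equal replicate numbers pair the libraries. The correlations of same-numbered deviations were -0.044, 0.012 and -0.022, and with 3 libraries per group they cannot settle it. With a replicate block 3 genes and 0 members were called, 7 members had an unadjusted p under 0.05 and their median was 0.14. Low counts limit Eda2r and Tnfrsf10b most, at 10 to 59 and 11 to 70 counts per library.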
